A study of Homo sapiens with 23 samples.

Results

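The loops that reach GATA3, FOXA1 and MIPOL1 were taken from 2 lists of chromatin loops from the established cell line T47D, a human breast cancer line of luminal type that carries the progesterone receptor. A loop was counted at a gene when either of its 5 kb bins overlapped the gene, widened by 10 kb on each side. By this rule 15 of the 9591 loops in the list labelled T30 and 14 of the 7075 loops in the list labelled T0 belonged to the 3 genes. GATA3 had 7 loops in T30 and 6 in T0, FOXA1 had 4 and 1, and MIPOL1 had 7 and 8. FOXA1 and MIPOL1 are neighbours, and 3 of these loops in T30 and 1 in T0 joined one gene to the other and were counted for both.

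HiChIP ligates stretches of DNA that are near each other in the nucleus and pulls down the ligated fragments with an antibody, which the labels name as PR. The T30 library carries the title PR5020, read here as the receptor plus R5020, a synthetic progestin that the treatment protocol names, and the T0 library names no hormone. The protocols, written for the whole series, put T47D cells in medium with charcoal-treated serum and then in serum-free medium before the hormone. The dose, the unit of the time and any pooling of cultures are not stated for these libraries, and the other samples of the 23 in the series were not analysed here. Each condition is 1 library, so no difference below has a replicate check, and every interval covers counting error only. A contact is a read pair that joins the bins of a loop, and counts of contacts reflect proximity and enrichment by the antibody together.

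GATA3 is a zinc finger transcription factor needed for luminal differentiation of the mammary epithelium. FOXA1 is a forkhead pioneer factor that opens chromatin for steroid receptors in the same cells. Enhancers can act on such genes from far away along the chromosome, and a loop list records which distant segments lay near the gene when the cells were fixed. MIPOL1, which encodes a coiled-coil protein, is the gene next to FOXA1, and its body holds many of the segments that met FOXA1. The files hold no expression values, so the luminal type of the cells could not be checked against marker genes, and the genes of the estrogen and progesterone receptors, ESR1 and PGR, had no listed loop in either library.

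Listed loops ended in bins that hold start sites of GATA3, in both libraries, and of FOXA1, in T30 alone, and the sequences upstream of these sites are shown for that reason. RefSeq (GRCh38.p14) gives 6 start sites of GATA3, all on the plus strand of chromosome 10. The sites at 8045333 and 8049854 lie in the bin from 8045001 to 8050000, where the strongest T0 loop began. The sites at 8051236, 8053641 and 8054688 lie in the next bin, from 8050001 to 8055000, where the strongest T30 loops began. The first site of the first bin and the last of the second are shown, with the single site of FOXA1 at 37595249 on the minus strand of chromosome 14. Capitals mark the forkhead core in its form TGTTTGC, or the reverse complement GCAAACA of that core. Each run holds the 250 bases before the start site, 5′ to 3′ on the strand of the gene.
GATA3, chr10:8045083-8045332, plus strand: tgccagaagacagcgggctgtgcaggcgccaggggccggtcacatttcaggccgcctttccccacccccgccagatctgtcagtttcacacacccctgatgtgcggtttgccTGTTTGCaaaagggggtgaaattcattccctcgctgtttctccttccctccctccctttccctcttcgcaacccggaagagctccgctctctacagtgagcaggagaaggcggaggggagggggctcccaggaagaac
GATA3, chr10:8054438-8054687, plus strand: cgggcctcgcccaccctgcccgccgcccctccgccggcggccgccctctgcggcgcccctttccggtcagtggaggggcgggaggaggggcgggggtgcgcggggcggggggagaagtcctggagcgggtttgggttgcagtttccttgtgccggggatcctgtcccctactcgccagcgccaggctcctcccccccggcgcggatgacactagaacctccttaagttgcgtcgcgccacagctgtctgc
FOXA1, chr14:37595250-37595499, minus strand: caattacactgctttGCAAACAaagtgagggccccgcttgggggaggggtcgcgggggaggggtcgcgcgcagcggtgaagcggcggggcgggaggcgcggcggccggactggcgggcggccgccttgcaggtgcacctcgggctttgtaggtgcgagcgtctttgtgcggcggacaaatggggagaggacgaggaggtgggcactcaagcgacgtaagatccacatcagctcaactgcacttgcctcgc

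The first GATA3 window holds TGTTTGC from 138 bases before the start site, and the second holds none of the motifs searched. The FOXA1 window holds it on the opposite strand from 235 bases before the start site. TTC6, a tetratricopeptide repeat gene, starts 380 bases away in the other direction, and the 250 bases before its start share 121 with the FOXA1 window. The 7 bases in capitals, whose lowest position is 37595478, lie in both. TGTTTGC, on either strand, was present in 3.23% of 35116 such windows in the table. The other motifs, searched on both strands, were absent from all 9 windows of GATA3, FOXA1, MIPOL1 and TTC6. The GATA factor core AGATAA was present in 9.17% of all windows of the table. The forkhead core in its form TGTTTAC was present in 2.98%. A single arm of the steroid receptor element, AGAACA, was present in 12.4%. TGTTTGC was added to the search after the sequences had been read. A match is a description of letters in a window and not evidence of binding.

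GATA3 (gene ID 2625, chromosome 10, 8045333 to 8075198, hg38) was joined in both libraries to a segment that lies more than 1 Mb above the gene. A stretch of 125 kb, from 9180001 to 9305000, was drawn to cover the far cluster ends of the GATA3 loops of 1 Mb or more. In it 5 loops in T30 and 5 in T0 ended that began at GATA3, with 64 contacts in T30 and 54 in T0. No protein-coding gene lies between GATA3 and that stretch, and the next one above GATA3, CELF2, an RNA-binding protein gene, starts 2387.4 kb from the end of GATA3. The stretch overlaps the long non-coding RNA genes LOC101928272 and LINC00709. The strongest of these loops in T30 had 19 contacts (exact 95% Poisson interval 11.4 to 29.7) between the bins at 8050001 and 9205001, a span of 1155 kb, with an authors' p of 8.46e-18. A companion loop in T30 from the same GATA3 bin to 9190001 had 17 contacts (9.90 to 27.2). The strongest T0 loop had 18 contacts (10.7 to 28.4) between 8045001 and 9195001, a span of 1150 kb, with an authors' p of 1.24e-15.

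These ends belong to 1 broad cluster in each list. The authors merged near contacts into clusters, and the cluster ran from 8045001 to 8060000 at GATA3 and from 9180001 to 9210000 at the far side in T30, against 8045001 to 8070000 and 9185001 to 9210000 in T0. Its summed contacts, as the authors give them, were 128 in T30 and 138 in T0. The T0 cluster also holds the loop from 8065001 to 9195001, which in T30 is a cluster of its own with 8 contacts. The sums thus cover unlike sets of bins. The loop with most contacts thus met GATA3 in neighbouring bins, the one from 8050001 in T30 and the one from 8045001 in T0, inside ranges that overlap. GATA3-AS1, the antisense RNA gene at GATA3, also lies in the bin from 8050001.

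Among the weaker distal loops of GATA3, 3 were listed at the same places in both libraries. From the bin at 8065001, inside the gene, a loop to 9195001 had 8 contacts in T30 and 10 in T0. From the bin at 8075001, at the upper end of the gene, a loop to 9200001 had 9 contacts in each library. From the bin at 8050001 a loop to 9300001, the longest of the gene at 1250 kb, had 11 contacts in T30 and 8 in T0. All used identical bins in both lists. A T0 loop of 9 contacts from 8045001 to 9215001 had no T30 loop whose cluster ranges overlapped its own. The strongest T30 loop, from 8050001 to 9205001, lay within 10 kb of it at both ends.

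The T30 list placed a further loop between GATA3 and the stretch without protein-coding genes. It joined 8050001 to 8950001, where the RefSeq table has no gene, with 12 contacts (6.20 to 21.0) and an authors' p of 2.01e-09. From that same bin at 8950001 another T30 loop of 9 contacts reached 9185001 in the distal segment, so that in T30 each of the 3 places was joined to the other places. Neither loop was listed in T0, where the count of contacts between these bins is not known.

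On its other side GATA3 met TAF3, which encodes a subunit of the general transcription factor TFIID. The loop ran from 7865001 in TAF3 to 8045001 at GATA3, a span of 180 kb, in identical bins in both lists. It had 10 contacts in T30 and 14 in T0. The authors' p was 8.52e-06 in T30 and 2.53e-05 in T0, so fewer contacts had the smaller p in T30, and the lists do not share a scale of p.

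The distal segment had other partners in T0. There 3 loops joined the bin at 9300001 to the gene KIN, which encodes a DNA-binding zinc finger protein, and to TAF3, with 11 contacts from 7755001, 7 from 7840001 and 8 from 7870001, over spans of 1430 to 1545 kb. None of the 3 was listed in T30. GATA3 loops thus made up 5 of the 6 loops of the segment in T30 and 5 of its 8 in T0. The segment was drawn from GATA3 loops, so a high share is built in. The T0 loop of 7 contacts had an authors' p of 0.00017, above the largest p in the T30 list, 2.84e-05. Those of 11 and 8 contacts had 3.18e-08 and 2.36e-05, below it. The T0 loop of GATA3 over 1250 kb had 3.00e-05, also above it, and its bins were listed in T30. The lists do not share a scale of p, so these values do not show why the 3 loops were not listed in T30. The T30 list holds no loop under 8 contacts.

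**Figure D1:**
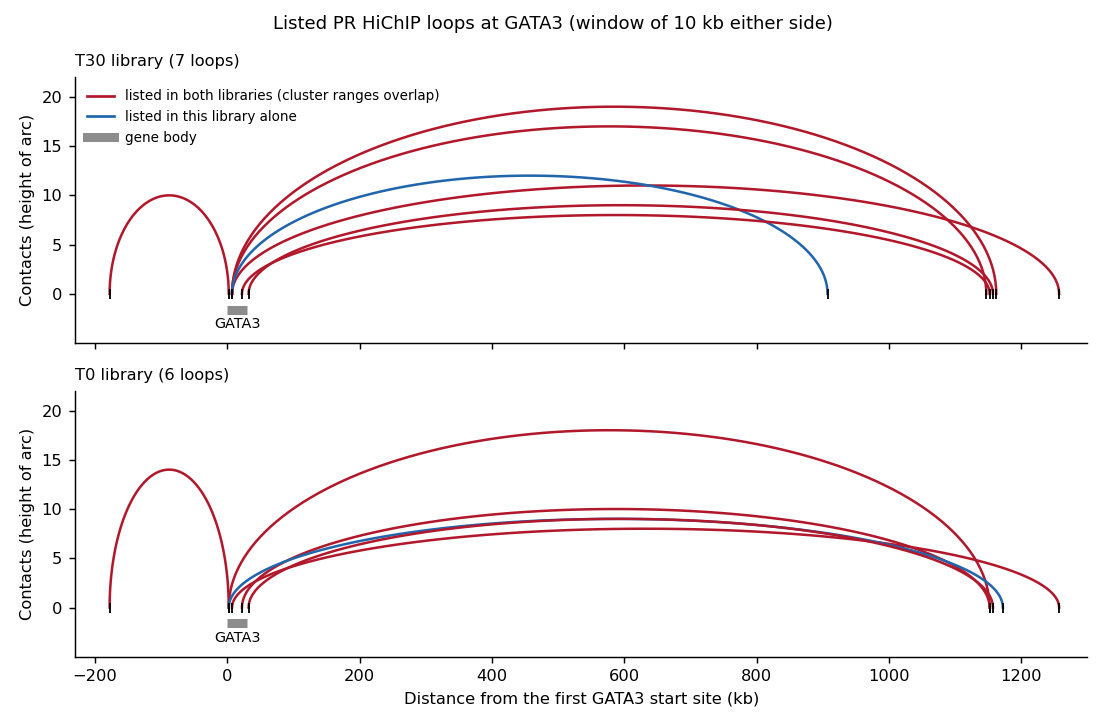
Loops at GATA3 in the T30 library (upper panel) and the T0 library (lower panel), as arcs between bin centres over the distance in kb from the first GATA3 start site, with arc height giving contacts. The arcs of 17 and 19 contacts in T30 and of 18 contacts in T0 end in the same distal segment, and the arc of 12 contacts that ends short of it is drawn in T30 alone.

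Loops this long were rare in both lists. At a span of 1 Mb or more the T30 list held 32 loops, or 0.334% of it, and the T0 list held 155, or 2.19%. GATA3 accounted for 5 of these in each list. Ranked by contacts among them, the strongest GATA3 loop was number 2 in T30, where the median was 9 contacts and the maximum 27, and number 4 in T0, where the median was 8 and the maximum 39. On chromosome 10 itself 8 loops in T30 and 21 in T0 were this long. The cut at 1 Mb was chosen with the spans known. Over all loops the median span was 80 kb in T30 and 190 kb in T0, while the median of the GATA3 loops was 1130 kb in T30 and 1140 kb in T0.

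**Figure D2:**
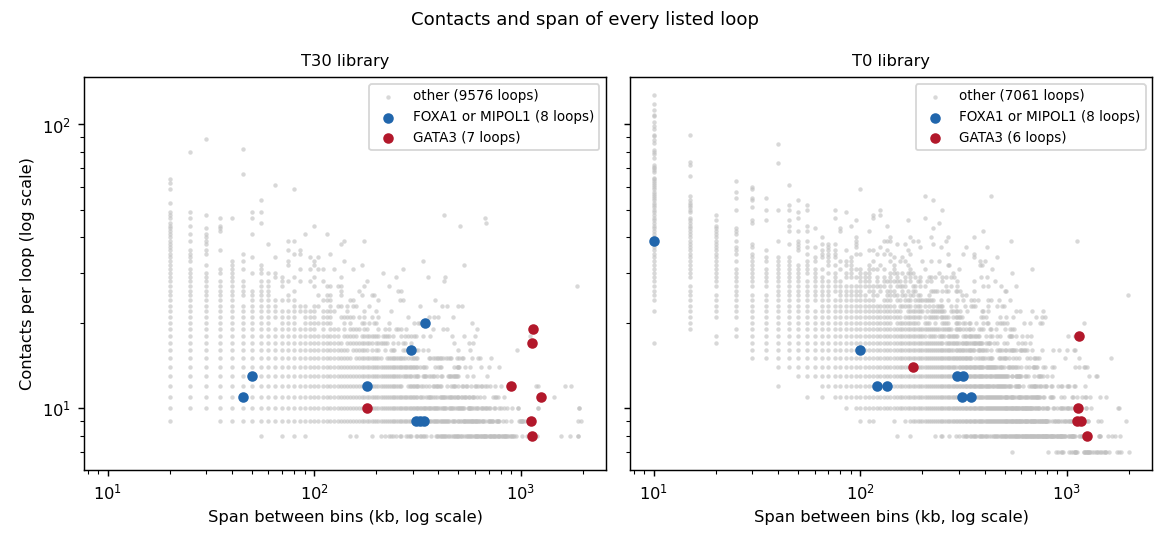
Contacts per loop against span in kb, both on log scales, for every listed loop in the T30 library (left) and the T0 library (right), with loops of GATA3 in red and of FOXA1 or MIPOL1 in blue. The red points near 1150 kb with 17 to 19 contacts in T30 and 18 in T0 stand above most loops of their span, and no T30 loop lies under 20 kb.

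FOXA1 (gene ID 3169, chromosome 14, 37589552 to 37595249, hg38) had loops mainly with the body of MIPOL1, and more of them were listed in T30. The strongest, from the bin at 37590001, which lies wholly in FOXA1, to the bin at 37245001 in MIPOL1, had 20 contacts in T30 (12.2 to 30.9) over 345 kb, with an authors' p of 6.61e-18. The nearest loop in T0 had 11 contacts (5.49 to 19.7) over the same span, between 37585001 and 37240001, both 1 bin lower, with an authors' p of 2.08e-06. The T0 bin holds only the last 449 bases of FOXA1. The cluster ranges of these loops overlapped at both ends, with summed contacts of 77 in T30 and 49 in T0. The T30 cluster ran from 37245001 to 37255000 and from 37580001 to 37600000. The T0 cluster ran from 37235001 to 37250000 and from 37580001 to 37590000. The sums thus cover unlike sets of bins and do not compare the same area. Among loops of 250 to 400 kb, a band around 345 kb, the FOXA1 loop ranked number 15 of 752 by contacts in T30. It was 1 of 6 loops tied at 20 contacts there, and the median was 10. In T0 it ranked number 736 of 1367, tied with many others, where the median was 12.

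The start site of FOXA1 lay at loops in T30 alone. The bin from 37595001 to 37600000 holds the starts of FOXA1 and TTC6, and in T30 it was joined to 37255001 in MIPOL1 by a loop of 9 contacts over 340 kb. It was also joined to 37645001 inside TTC6 by a loop of 13 contacts over 50 kb. Another T30 loop without a match in T0 joined the FOXA1 bin at 37590001 to the end of MIPOL1 at 37545001, over 45 kb, with 11 contacts. The FOXA1 loops held 53 contacts in T30 and 11 in T0. The loops share bins, and their number, 4 in T30 and 1 in T0, has no test.

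The count of FOXA1 loops in T0 depended on where the gene was taken to end. In T0 the bin at 37565001, which ends 19.6 kb below FOXA1, was joined to MIPOL1 by loops of 13 and 12 contacts, and the 10 kb window leaves these out. With FOXA1 widened by 25 kb the counts were 5 loops and 62 contacts in T30 and 3 loops and 36 contacts in T0. By the authors' q under 0.01 they were 2 in T30 and 1 in T0.

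MIPOL1 (gene ID 145282, chromosome 14, 37197937 to 37552361, hg38) held 1 segment that was drawn to cover the lower ends of the long loops of this locus. All listed loops of 295 kb or more at FOXA1 or MIPOL1 started in it, and this is built in. The segment runs from 37235001 to 37260000, between 37.1 and 62.1 kb past the start of the gene. The RefSeq table gives gene limits and no exons, so its place in exon or intron is not stated. In T30 6 loops with 75 contacts began there, and 5 of the 6 used the bin at 37245001. In T0 4 loops with 48 contacts began there, spread over the bins at 37235001, 37240001 and 37250001, and none was listed at 37245001, although the cluster ranges of 2 of them cover that bin. The bin at the start of MIPOL1, from 37195001 to 37200000, had no loop in either library.

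The far ends of these loops, but for a T30 loop to 37425001 inside MIPOL1, lay in the last part of MIPOL1, in the gap of 37.2 kb between MIPOL1 and FOXA1, and at FOXA1. From the segment to the stretch between 37540001 and 37575000 there were 3 loops with 34 contacts in T30 and 3 with 37 in T0. From the segment to FOXA1, in the bins from 37585001 to 37600000, there were 2 loops with 29 contacts in T30 and 1 with 11 in T0. The strongest of the first kind had 16 contacts in T30, from 37245001 to 37540001, and 13 in T0, from 37250001 to 37545001, both over 295 kb, and their cluster ranges overlapped. Other T30 loops of 9 contacts each reached 37555001 and 37570001 in the gap.

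A second place in MIPOL1, around 37425001 to 37445000, had other listed loops in each library. In T0 it was joined forward to the end of the gene and to the gap by loops of 12, 12 and 16 contacts over 120, 135 and 100 kb. In T30 it was joined back to the segment at 37245001 by a loop of 12 contacts over 180 kb, and the forward loops were not listed. Those of 12 contacts had an authors' p of 0.000105 and 4.53e-05 in T0, above the largest p in the T30 list. The forward loop of 16 contacts had 1.68e-06, below it. The lists do not share a scale of p, so these values do not show why the forward loops were not listed in T30. Elsewhere T30 listed 22 loops of 12 contacts over 120 kb and 9 over 135 kb. Whether the forward loops of MIPOL1 could have been listed in T30 was not tested. The T0 list also held a loop of 39 contacts over 10 kb, from 37220001 to 37230001, while the shortest span in the T30 list is 20 kb. MIPOL1 contacts were 86 in T30 and 127 in T0, or 88 in T0 without that loop. The loop of 39 contacts also had an authors' p in T0, 3.65e-05, above the largest listed in T30, with the same limit.

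**Figure D3:**
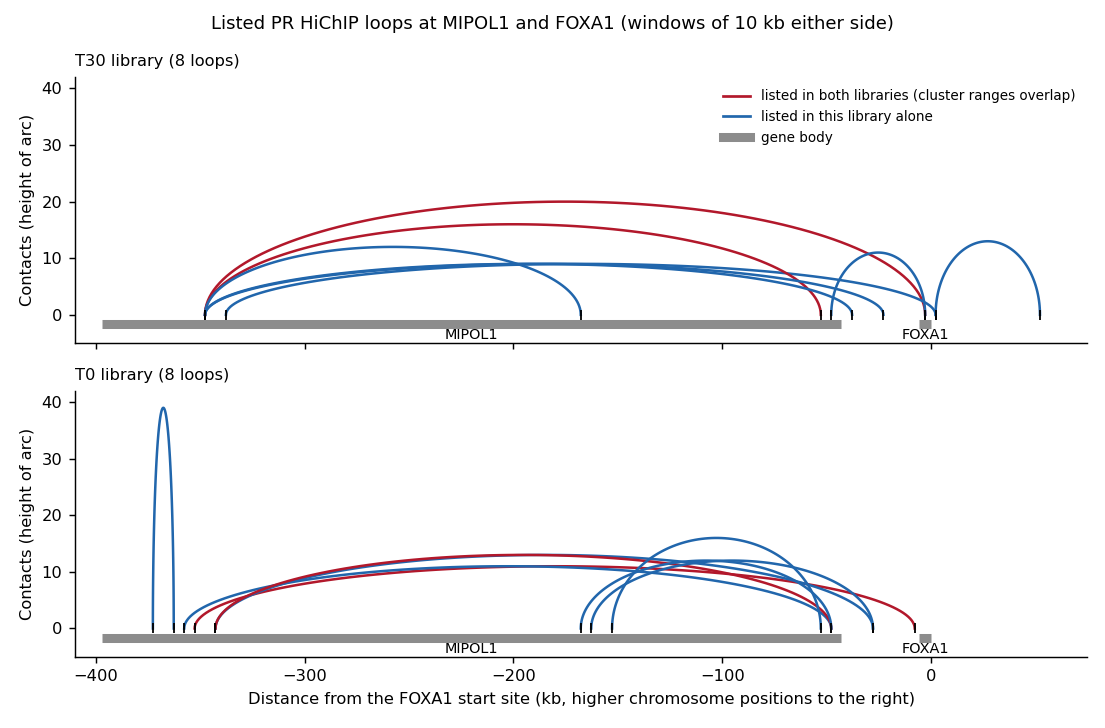
Loops at MIPOL1 and FOXA1 in the T30 library (upper panel) and the T0 library (lower panel), as arcs between bin centres over the distance in kb from the FOXA1 start site, with arc height giving contacts. The arc of 20 contacts into FOXA1 in T30 has a lower counterpart of 11 contacts in T0 that stops at the edge of the gene, and arcs to the right of the FOXA1 start appear in T30 alone.

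Recurrence was counted for each locus. A loop was taken to recur when the cluster ranges of both its ends overlapped those of a loop in the other list by at least 1 bp. At GATA3 6 of 7 loops in T30 and 5 of 6 in T0 recurred, where 16.4% of all T30 loops and 22.2% of all T0 loops did so. At FOXA1 or MIPOL1 together it was 2 of 8 in T30 and 2 of 8 in T0. With both bins identical, which holds for 6.34% of T30 loops and 8.59% of T0 loops, the matches were 4 at GATA3 and 0 at the other genes. Among loops of 1 Mb or more, 12 of 32 recurred in T30 and 17 of 155 in T0, and GATA3 gave 5 of the 12 and 4 of the 17. A looser rule asked only that both bins lie within 10 kb of those of a loop in the other list. By it 10 loops at GATA3, FOXA1 and MIPOL1 together recurred in each list, against 8 in T30 and 7 in T0 by overlap. Some loops counted above as not recurring thus had a near neighbour in the other list. Loops of a gene share ends and are not independent of each other, so these shares are descriptions.

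Contacts of recurring loops were then compared pair by pair, with each loop used once. Over 1389 matched pairs in the 2 lists the median ratio of T30 to T0 contacts was 0.667. An exact two-sided binomial test of each pair against that ratio, with Benjamini-Hochberg adjustment over all pairs, called 1.58% of pairs higher in T30 and 0.072% lower, or 22 and 1 pairs. With no scaling it called 6 higher and 41 lower, and with scaling by the summed contacts of the whole lists 6 and 127. The test compares 2 libraries and not 2 conditions. None of the 7 pairs at GATA3, FOXA1 and MIPOL1 was called, and 1 had an unadjusted p under 0.05. This was the FOXA1 to MIPOL1 pair of 20 contacts in T30 and 11 in T0. Its bins differ between the lists, where 4 of the 7 pairs used identical bins. Its scaled log2 ratio was 1.45 (95% interval 0.32 to 2.66, exact binomial p = 0.00903, adjusted p = 0.322). With no scaling its log2 ratio was 0.86 (-0.27 to 2.07, exact binomial p = 0.150), and scaled by the summed contacts of the whole lists it was 0.77 (-0.36 to 1.98, exact binomial p = 0.156).

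The other 6 pairs had scaled log2 ratios from 0.10 to 1.04. The interval of each included 0, from -1.23 to 1.37 for the TAF3 loop of GATA3 and from -0.40 to 2.56 for its loop of 1250 kb. The pair of 17 contacts in T30 and 18 in T0 at the main GATA3 cluster had a ratio of 0.50 (-0.54 to 1.54). All 7 ratios lie above 0 against the median ratio of all pairs, and this sign depends on the scaling: in plain contacts, T30 was above T0 in 3 of the 7 pairs, below it in 3 and level with it in 1. The T30 loop of 19 contacts at GATA3 had no partner left in this matching, because the second loop of the T0 cluster was paired with the T30 loop from the identical bins at 8065001 and 9195001.

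**Figure D4:**
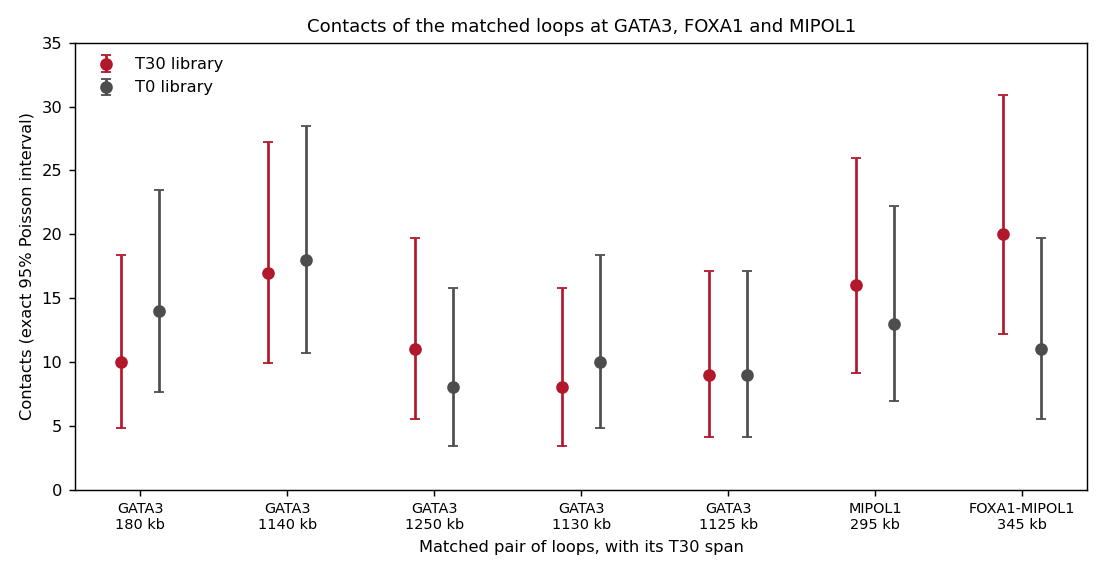
Contacts in the T30 library (red, left of each pair) and the T0 library (grey) for the 7 matched pairs of loops, with exact 95% Poisson intervals and the span of each T30 loop in kb under it. The intervals overlap in every pair, and the widest gap is 20 contacts in T30 against 11 in T0 at the loop between FOXA1 and MIPOL1.

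Other genes of the same regions had loops too. Within 2 Mb of GATA3, 7 of 10 other protein-coding genes had a loop in T30 and 7 in T0, by the same 10 kb window. SFMBT2, which encodes a Polycomb-group protein, had 7 loops in T30 and 0 in T0, and PFKFB3, a glycolytic regulator, had 12 and 4. In the other direction TAF3 had 2 and 3, and ITIH5 and ITIH2 had 0 and 1 each. Within 2 Mb of FOXA1, 8 of 17 had a loop in T30 and 11 in T0, among them TTC6 with 4 and 1, all shared with FOXA1. PAX9, which encodes a paired-box transcription factor, had 3 in each library. SEC23A and GEMIN2 had 1 in T30 and 4 in T0 each, and FBXO33 had 1 and 3.

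A list of 24 luminal genes, chosen with earlier results of these data known, sets both factors among their peers. A loop was listed at 15 of the 24 in T30 and at 18 in T0, where 32.1% of all 20033 protein-coding genes had a loop in T30 and 27.2% in T0. By number of loops 8 of the 24 had more in T30 and 9 had fewer, against 20.8% and 15.3% of all genes. GRHL2, an epithelial transcription factor, had 18 in T30 and 10 in T0, ZNF703, a luminal oncogene, 15 and 7, and TRPS1, a GATA-type repressor, 9 and 2. ELF5, a factor of the alveolar lineage, had 2 and 7, and KRT8, a luminal keratin, 4 and 7. Of the whole list GATA3 alone had a loop of 1 Mb or more in T30. In T0 TBX3, a T-box transcription factor, had 8 such loops of 10 in all, and it had no loop in T30.

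**Figure D5:**
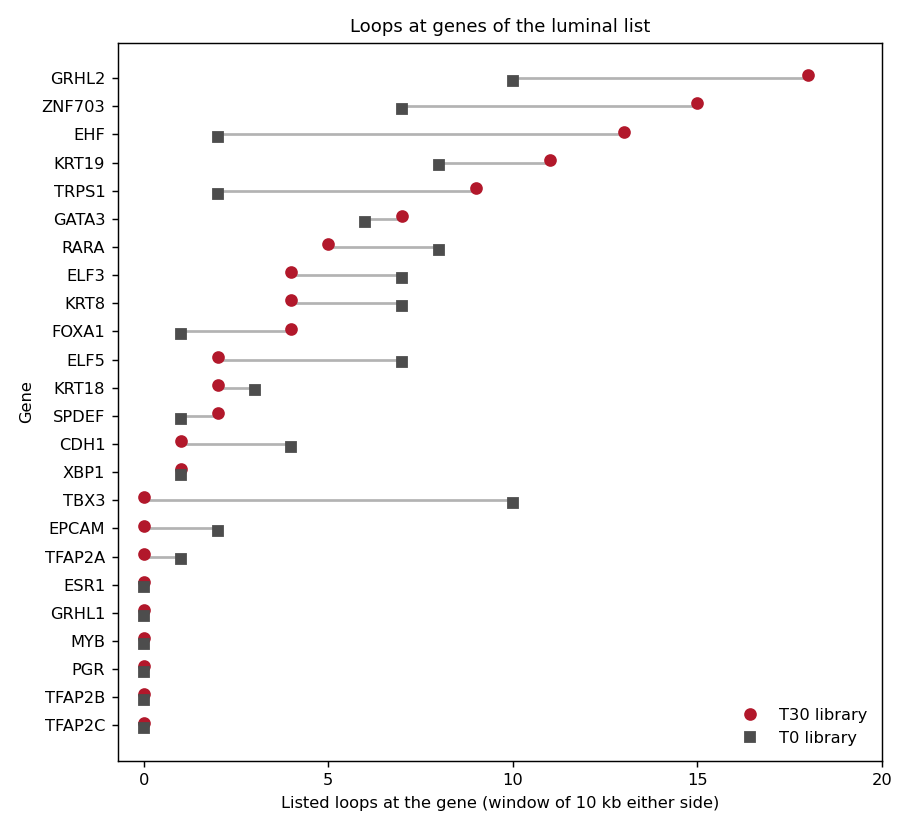
Number of listed loops at each of 24 luminal genes, widened by 10 kb, in the T30 library (red circles) and the T0 library (grey squares). GATA3 had 7 and 6 and FOXA1 4 and 1, and at TBX3 10 loops were listed in T0 and 0 in T30.

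Genes most like each factor were found over 4 measures, the number of loops and the median span in each library, on log2 scales, among 3582 other genes with a loop in both lists. The nearest to GATA3 were TTC14 (distance 0.72), USP13 (1.10) and PEX5L (1.27), with median spans of 670 to 830 kb in T30 and 665 to 845 kb in T0. All lie on chromosome 3 between 179653040 and 180618329. USP13 ends at 179789401 and PEX5L starts at 179794958, so their widened windows overlap and can share loops. TTC14 starts at 180602163, and loops of such spans could also join it to USP13 or PEX5L. The 3 genes are therefore not taken as separate cases. None of the 3 reached the median span of GATA3. The nearest to FOXA1 was TTC6 at a distance of 0, since all its loops are those of FOXA1, followed by LSM3 (0.41) and SHOC1 (0.48). With 2 libraries these distances describe the lists and carry no test.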

How the data were processed

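HiChIP for PR was analysed in 2 libraries of T47D cells, labelled T30 and T0, 1 each. Bowtie, hg38 and GRCh38 appear in the submitters' processing notes. The loop caller's settings and any pooling: not given in the sources used here. As deposited by the authors, contacts are counts of read pairs per loop with no normalization, and the authors also give counts summed over clusters of merged loops. Per the file headers, the deposited p-values and q-values are corrected for bias, and all q-values are under 0.05. A fraction per cluster, also deposited, entered no result. The lists hold 135538 contacts in T30 and 127457 in T0, and the sequencing depth is unknown.

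Gene limits came from RefSeq (GRCh38.p14), and all 3 genes and 24 list genes were found; 1 further gene of the luminal list is not reported here. Bins are given 1-based. Loop recurrence, one-to-one pairs (by summed distance between bins, then contacts), exact binomial tests with Benjamini-Hochberg adjustment at 0.05, and exact 95% Poisson and binomial intervals were computed in Python 3.11.15 with numpy 2.4.6, pandas 2.3.3 and scipy 1.17.1, and figures with matplotlib 3.10.9. The one-to-one matching and the binomial test were run on simulated data. The simulated shared loops had identical bins, so overlap of unlike clusters was not tried. The simulated counts had no threshold for listing, unlike the lists. Named were the 3 genes, each of their loops, genes at partner bins, protein-coding genes within 2 Mb, the luminal list and the 3 genes most like GATA3 and FOXA1; where these are many, a part is given. The genes and lists were chosen with earlier results of these data known. Alternatives were the width of the gene window, a minimum of 10 contacts, q under 0.01, spans of at least 20 kb, lists cut to equal length, other definitions of a shared loop and other scalings.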

Additional observations from a re-analysis of the deposited data

How the results depend on the processing

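No paired analysis was possible because each condition is 1 library. Of the counts of loops, at q under 0.01 FOXA1 had 2 in T30 and MIPOL1 had 3 in T30 and 5 in T0. With at least 10 contacts MIPOL1 had 4 in T30 and GATA3 had 3 in T0. With a window of 25 kb FOXA1 had 3 in T0. The median span at GATA3 was 1140 kb in T30 and 1130 kb in T0, both at q under 0.01 and with at least 10 contacts. At FOXA1 it was 50 kb in T30 with at least 10 contacts. At MIPOL1 it was 295 kb in T30 and 310 kb in T0 at q under 0.01, 237.5 kb in T30 with at least 10 contacts, and 295 kb in T0 with spans of at least 20 kb. Recurring loops at the 3 genes were 8 in T30 and 7 in T0; they were 4 and 4 with identical bins, and 5 in T30 at q under 0.01. The other 50 of 68 such values stayed within 1.5 times their count or within 5 kb of their span. None of the 7 pairs at the 3 genes was called under any scaling run. Over all 1389 pairs 22 were called higher in T30 and 1 lower, against 6 and 41 with no scaling and 6 and 127 with whole-list scaling, and 5 and 0 of 608 pairs with identical bins. With no scaling the log2 ratios of the GATA3 pairs were -0.49 (TAF3), -0.082 (main cluster) and -0.32 (from 8065001), and with the ratio of summed contacts of the lists (1.06) they were -0.57, -0.17 and -0.41, with -0.089 for the pair from 8075001; the scaling alone sets these signs. Scaling by summed contacts of matched pairs (0.680), chosen after seeing the data, turned no sign. A loop missing from a list may have been below its threshold or merged into a cluster, and is no count of 0.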
